A study of Mus musculus with 23 samples.

Results

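In cultured mouse bone marrow-derived macrophages (BMDMs) 1260 chromatin regions were more accessible with the Notch ligand Delta-like 4 (DLL4) than without it, and those regions were followed here through blood monocytes and liver macrophages. Accessibility was read from ATAC-seq libraries, made with a transposase that inserts adapters where DNA is not wrapped up. Overlapping peaks of all 23 libraries were merged into 155137 regions on the autosomes and the X chromosome. A region was called raised when it held a peak in all 4 BMDM libraries and its lower value in 2 DLL4 libraries was at least 1.5 times its higher value in 2 untreated (NoTx) libraries. Of 72015 regions with a peak in all 4 BMDM libraries, 1260 met this rule, which is 1.75%, and 868 regions (1.21%) met the mirrored rule and are called lowered. The balance of the counts depended on the measure: centring each library on its median gave 1142 raised and 1059 lowered, and the findPeaks score in place of the tag count gave 504 raised and 720 lowered. The regions were thus selected on the normalised tag counts of the 4 BMDM libraries, so the DLL4 contrast is described without a test, and tests were made only in blood and liver libraries.

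Notch receptors are cut after they bind a ligand on a neighbouring cell, and the freed intracellular domain joins the DNA-binding protein RBPJ and coactivators of the Mastermind family at target genes such as Hes1. In the liver, sinusoidal endothelial cells present Notch ligands to the monocytes that refill the niche when resident macrophages, the Kupffer cells, are lost. Kupffer cells clear particles, bacteria and damaged blood cells from the sinusoids, and their identity genes include Clec4f, Timd4, Spic, Clec1b and Itga9.

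The DLL4 BMDMs were C57BL/6J marrow macrophages cultured for 4 days and given DLL4 for 24 h (2 libraries), and the NoTx BMDMs were the same cells without DLL4 (2 libraries). Blood Ly6C-high monocytes came from untreated C57BL/6J mice (2 libraries). Clec4f-cre/Rosa26iDTR mice, in which a Kupffer cell gene drives the Cre that makes cells sensitive to diphtheria toxin, gave repopulating liver macrophages (RLMs) 24 h after the toxin (3 libraries) and 48 h after it (2 libraries), and Kupffer cells after PBS alone (2 libraries). Per the file headers the RLMs were Clec-negative and the PBS Kupffer cells Clec-positive. Untreated Nr1h3 flox/flox Clec4f-cre +/- mice, which lose the liver X receptor LXR-alpha in cells that express Clec4f, gave TIM4-negative and TIM4-positive cells (2 libraries each), set against TIM4-positive cells of Nr1h3 flox/flox mice (2 libraries). The titles mark both KO groups as ClecPos and the controls as ClecNeg, without saying what this refers to, so that mark, and TIM4 status for the TIM4-negative cells, cannot be told apart from genotype. Kupffer cells titled Smad4 KO and titled control (2 libraries each) carry strain labels that say the opposite: Smad4 flox/flox for the libraries titled KO, and Smad4 flox/flox Clec4f-cre +/- for those titled control. The titles were followed, and every direction in that comparison would turn if the strain labels are right. Age is not given in the sources used here. Nothing in the labels says that the BMDM, Nr1h3 or Smad4 replicates came from separate cultures or animals, so p-values measure the spread between libraries.

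A smaller share of raised regions than of all regions of these cultures lay at gene starts. A window of 250 bases before to 50 bases after an annotated gene start was touched by 48 raised regions (3.81%), 26 lowered regions (3.00%) and 14.2% of the 72015 regions. Of the raised regions 703 (55.8%) lay inside a protein-coding gene and 208 (16.5%) had none within 50 kb, against 63.2% and 9.57% of all 72015. The nearest gene within 50 kb names a region below, which does not show that the gene answers to it. Shown are the 4 promoter windows with the largest DLL4 ratio among the genes that were ranked. These were protein-coding genes whose window shared at least 150 bases with a raised region, outside a chromosome that was left out. Larger ratios on that chromosome were not looked for. Promoter windows are shown because they are the sequences of raised regions that the reference table holds. They are from RefSeq, GRCm38.p6, 5′ to 3′ on the gene's strand, with matches to any of the searched motifs in capitals. The Runx3 window is chr4:135152295-135152594 on the plus strand, the Vipr1 window chr9:121642466-121642765 on the plus strand, the Tspan15 window chr10:62231169-62231468 on the minus strand and the Abcg3 window chr5:104982668-104982967 on the minus strand.
Runx3: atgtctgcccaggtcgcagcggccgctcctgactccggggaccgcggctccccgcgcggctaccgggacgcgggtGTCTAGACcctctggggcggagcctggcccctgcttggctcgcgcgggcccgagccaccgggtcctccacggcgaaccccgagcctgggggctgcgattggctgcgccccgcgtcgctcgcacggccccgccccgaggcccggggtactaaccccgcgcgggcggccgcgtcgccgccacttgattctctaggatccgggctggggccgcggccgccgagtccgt
Vipr1: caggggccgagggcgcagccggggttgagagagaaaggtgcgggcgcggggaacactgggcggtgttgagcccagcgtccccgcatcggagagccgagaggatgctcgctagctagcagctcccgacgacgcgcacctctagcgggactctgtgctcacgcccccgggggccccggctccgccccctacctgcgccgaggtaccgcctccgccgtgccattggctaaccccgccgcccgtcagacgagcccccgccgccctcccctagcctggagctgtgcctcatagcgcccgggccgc
Tspan15: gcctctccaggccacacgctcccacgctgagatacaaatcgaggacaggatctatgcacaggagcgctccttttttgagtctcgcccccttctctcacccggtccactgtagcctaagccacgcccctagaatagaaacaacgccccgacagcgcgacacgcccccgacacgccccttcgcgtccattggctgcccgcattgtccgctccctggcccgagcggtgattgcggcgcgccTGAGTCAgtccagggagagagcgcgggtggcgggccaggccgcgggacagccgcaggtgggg
Abcg3: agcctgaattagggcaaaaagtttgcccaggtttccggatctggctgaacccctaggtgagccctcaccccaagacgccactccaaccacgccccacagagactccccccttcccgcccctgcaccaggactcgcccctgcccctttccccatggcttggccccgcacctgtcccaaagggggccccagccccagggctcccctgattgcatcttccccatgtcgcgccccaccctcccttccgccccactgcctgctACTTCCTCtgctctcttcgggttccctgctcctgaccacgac
The Runx3 window holds the palindromic SMAD motif GTCTAGAC, the Tspan15 window the AP-1 motif TGANTCA, and the Abcg3 window the PU.1 motif GAGGAAGT on its other strand. None of the searched letters were found in the Vipr1 window.

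The DLL4 signals of these 4 regions stood clear of NoTx. The Runx3 promoter region had 42.9 and 44.5 normalised tags (tags in the peak, scaled to a library of 10 M tags) in DLL4 BMDMs, against 7.99 and 9.63 in NoTx. Vipr1, a receptor for vasoactive intestinal peptide, had 37.1 and 35.6 in DLL4 BMDMs, against 7.37 and 10.5 in NoTx. The tetraspanin gene Tspan15 had 58.9 and 62.3 in DLL4 BMDMs, against 25.8 and 24.5 in NoTx. Abcg3 had 79.2 and 92.4 in DLL4 BMDMs, against 38.7 and 31.5 in NoTx. In each the groups were separate, as the rule requires.

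Motifs were counted in the 56 promoter windows that raised regions touched, on both strands. The RBPJ motif GTGGGAA was in 6 of 56 windows (10.7%), beside 10.3% of 29 windows at lowered regions, 5.77% of 12019 windows at any of the 72015 regions and 6.38% of all 32619 windows. Its shorter core TGGGAA, which every GTGGGAA contains, was in 28.6%, against 37.9% at lowered regions, 22.6% at the 72015 and 25.4% of all windows. TGANTCA was in 12.5% of raised windows, against 34.5% of lowered windows, 4.94% at the 72015 and 7.85% of all. The C/EBP motif TTGCNNAA was in 17.9%, against 31.0%, 8.14% and 10.9%, and the RUNX motif TGTGGTT was in 5.36%, against 0 of 29, 3.74% and 5.29%. GTCTAGAC was found in 1 of the 56 windows (1.79%), against 0.215% of all windows. GAGGAAGT was in 5.36%, against 3.45% at lowered regions, 3.89% at the 72015 and 3.22% of all. The E-box CACGTG was in 7.14%, against 3.45%, 10.9% and 7.2%, the MAF core TGCTGA in 23.2%, against 31.0%, 14.9% and 19.5%, and the interferon-stimulated response element, read as a pair of GAAA with any 2 bases between, in 3.57%, against 0 of 29, 3.15% and 3.46%. No Hes1 window was searched here. With so few windows these shares are a description, and the other raised regions were not searched because no genome sequence was used here.

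In the 4 BMDM libraries the median raised region had 34.2 and 34.2 normalised tags with DLL4, against 17.2 and 15.8 without it. The 72015 regions had medians of 37.1 and 36.9 with DLL4, against 38.1 and 34.2 without it, so raised regions sat below the general level in NoTx and near it with DLL4. The median raised region had a lower-DLL4 to higher-NoTx ratio of 1.69, and its mean DLL4 value was 2.00 times its mean NoTx value. At a ratio of 2 there were 214 raised and 75 lowered regions, and at 3 there were 18 and 1. The last region inside the rule, chr2:74964433-74964664 with no gene within 50 kb, had 19.6 and 17.1 in DLL4, against 10.4 and 11.4 in NoTx. The first outside it, in Cdkn3 at chr14:46767374-46767669, had 72.7 and 75.9 in DLL4, against 48.5 and 42.9 in NoTx. There were 227 raised regions within 0.05 above the ratio of 1.5 and 295 other regions within 0.05 below it. In tags, the chr2 region held 27 and 25 with DLL4, against 17 and 13 without, with exact Poisson 95% intervals, which cover counting error only, of 12.9 to 28.5 and 11.1 to 25.2 against 6.08 to 16.7 and 6.06 to 19.5 normalised tags.

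The largest DLL4 ratio was at Hes1, the repressor of the basic helix-loop-helix family that is the textbook target of Notch. The region 42 bases from the gene, at chr16:30065071-30065315, had 172.2 and 169.0 normalised tags in DLL4 BMDMs, against 27.6 and 31.5 in NoTx, a ratio of 5.37 and the highest of all. A second region, 904 bases from the gene at chr16:30063981-30064453, had 166.4 and 139.6 in DLL4, against 25.8 and 35.9 in NoTx. Its neighbour at chr16:30063469-30063887 had 60.3 and 75.9 in DLL4, against 14.7 and 17.5 in NoTx. Of the 6 regions nearest Hes1 with a peak in all 4 libraries these 3 were raised and none was lowered.

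The other genes among the 12 regions with the largest ratio were Runx3, Zfp366, Dennd1a, Erich5, Vipr1, Sec13 and Abcg1. Runx3, a Runt family transcription factor of lymphoid and myeloid cells, ranked second by its promoter region, with a ratio of 4.45. Zfp366, a zinc finger cofactor of nuclear receptors, had 50.1 and 45.8 in DLL4, against 11.1 and 7.88 in NoTx. Dennd1a, an exchange factor for a Rab GTPase of endosomes, had 50.1 and 36.9 in DLL4, against 9.21 and 10.5 in NoTx. Erich5 had 75.6 and 67.7 in DLL4, against 19.7 and 16.6 in NoTx. Sec13 is part of the coat of vesicles leaving the endoplasmic reticulum and of the nuclear pore, and the region 780 bases from it had 50.1 and 47.2 in DLL4, against 12.9 and 14.0 in NoTx. Abcg1 exports cholesterol, and the region 9.71 kb from it had 30.5 and 28.7 in DLL4, against 8.60 and 8.76 in NoTx. The 12 regions are completed by 2 without a gene within 50 kb, of which chr3:50733448-50733720 had no peak in any of the 19 blood and liver libraries.

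**Figure D1:**
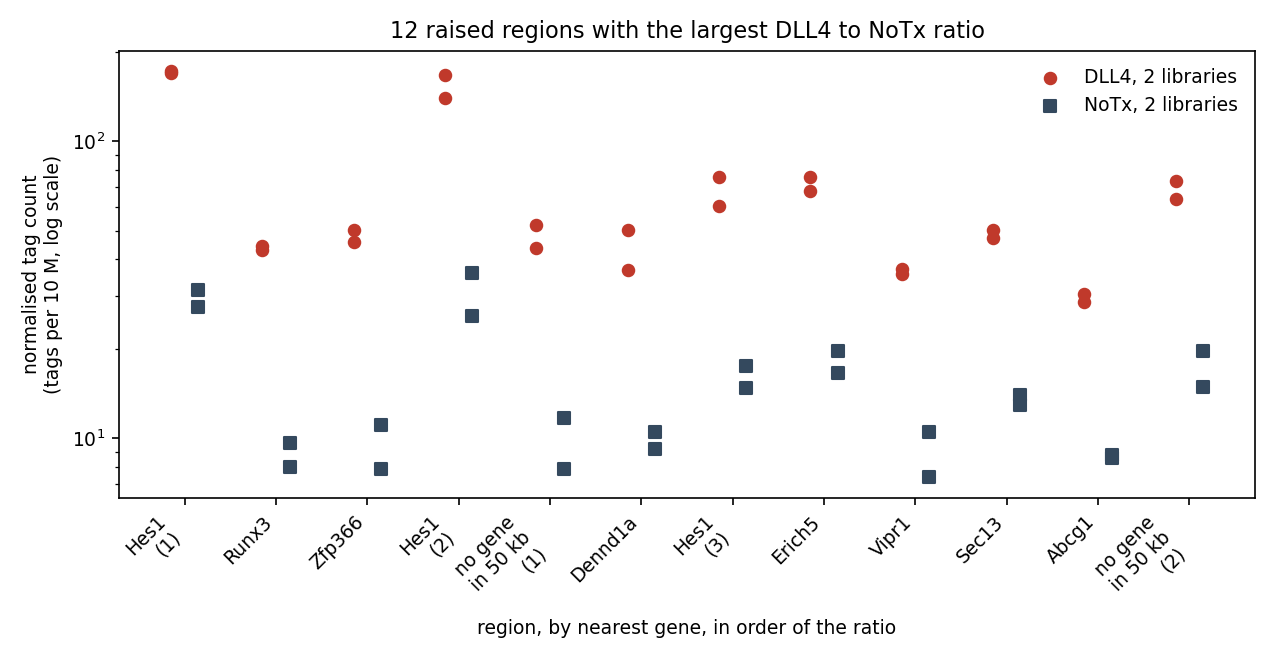
Normalised tag counts (log scale) of the 12 raised regions with the largest ratio, by nearest gene, with DLL4 libraries left of NoTx libraries. In every region both DLL4 points lie above both NoTx points, and the first Hes1 region has 172.2 and 169.0 with DLL4, against 27.6 and 31.5 without.

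Beyond Hes1 the Notch genes held few raised regions. Of 104 regions nearest 28 Notch target genes 4 were raised (3.85%, beside 1.75% overall) and 2 were lowered, at Cd300e and Notch1. The fourth raised region lay 7.75 kb from Nrarp, whose product feeds back on the Notch complex, with 18.2 and 14.4 in DLL4, against 7.99 and 7.01 in NoTx. Of 354 regions nearest 51 genes of the pathway, 6 were raised (1.69%) and 9 lowered, so the pathway's share was near the background. They included Dtx4, a Deltex ubiquitin ligase of Notch signalling, with 33.4 and 43.1 in DLL4, against 17.2 and 9.63 in NoTx. The coactivator gene Maml3 had 47.2 and 40.4 in DLL4, against 25.8 and 25.4 in NoTx, and also held a lowered region.

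Kupffer cell identity genes held raised regions at 30 of 284 regions (10.6%, beside 1.75% overall) and lowered regions at 2. The raised ones were spread over 14 of the 40 genes listed, and 12 of the 30 were at Itga9. Without Itga9 the count was 18 of 260 (6.92%). The list was drawn up with results of these data known, so its share is a description. Dnase1l3, a secreted nuclease, held 3, of which the one with the largest ratio had 61.0 and 64.3 in DLL4, against 21.5 and 14.9 in NoTx. Arnt2, Cd38 and Ptgs1 held 2 each, and the prostaglandin synthase gene Ptgs1 had the highest level of these with 183.1 and 209.3 in DLL4, against 119.2 and 100.7 in NoTx. Clec1b, a lectin of Kupffer cells and platelets, had 98.1 and 95.8 in DLL4, against 59.6 and 34.2 in NoTx. Timd4, which encodes the phosphatidylserine receptor TIM4, had 55.2 and 80.7 in DLL4, against 29.5 and 23.6 in NoTx. Spic, a transcription factor of iron-recycling macrophages, was low in both states, with 21.1 and 19.2 in DLL4, against 8.60 and 7.88 in NoTx. Epb41l3, Il18bp, Lhfpl2, Pcolce2, Rxra and Stab2 held 1 each, with ratios from 1.51 to 2.00.

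Itga9, the alpha-9 integrin subunit, held more raised regions than any other gene, 12 of the 24 regions nearest it with a peak in all 4 libraries. They spanned 268 kb, and none of the 24 was lowered. All but 1, which lay 6587 bases outside, were within the gene body. The ratios went from 1.51 to 2.75. The highest level was at chr9:118669754-118670006, with 163.5 and 153.9 in DLL4, against 102.0 and 86.7 in NoTx. The region at chr9:118762758-118763552 had the largest ratio, with 30.5 and 38.3 in DLL4, against 11.1 and 7.88 in NoTx. Next in number were Cpq, a carboxypeptidase gene, with 5 of 9 regions, and Grk3, a kinase of G protein-coupled receptors, with 5 of 11. Of 905 genes with a raised region, 794 had 1 and 20 had 3 or more.

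In blood and liver the Itga9 regions were followed by their number of peaks and their summed signal, which moves with that number. Of the 12 regions 3 and 5 had a peak in the blood libraries, with sums of 127.0 and 226.3. At 24 h 11, 10 and 8 had a peak, with sums of 1018, 895.4 and 623.0, and at 48 h 10 and 11 had a peak, with sums of 1077 and 1118. In PBS Kupffer cells 10 and 10 had a peak, with sums of 603.8 and 770.8, so every RLM sum lay above both blood sums. The 30 regions of the Kupffer list, these 12 included, had peaks at 8 and 10 in blood, 25, 23 and 18 at 24 h, 24 and 25 at 48 h and 26 and 24 in PBS Kupffer cells. Timd4 had a peak in both PBS Kupffer libraries, at 34.1 and 25.9, and in none from blood or RLMs. Spic had no blood peak, 112.3, 144.4 and 70.2 at 24 h, 179.5 and 205.4 at 48 h and 113.7 and 117.0 in PBS Kupffer cells, all above its DLL4 values in culture.

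**Figure D2:**
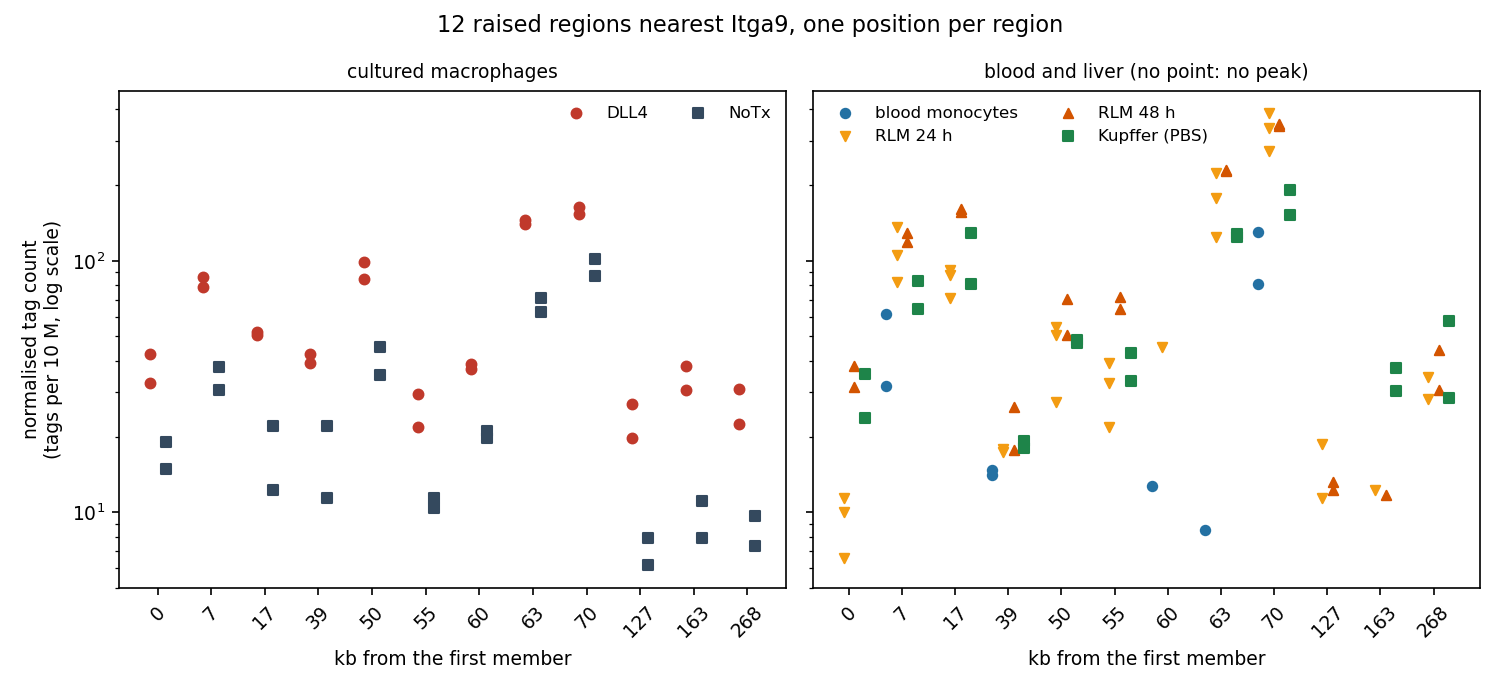
Normalised tag counts (log scale) of the 12 raised regions nearest Itga9, placed in genomic order and labelled by kb from the first. Left, DLL4 beside NoTx libraries. Right, blood monocytes, RLMs at 24 h and 48 h and PBS Kupffer cells, where a missing point is a missing peak. The region at 70 kb has 273.1 to 386.6 at 24 h, against 80.6 and 129.7 in blood.

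Other lists were close to the background or small. Raised regions numbered 6 of 321 (1.87%) for macrophage transcription factors, 4 of 142 (2.82%) for LXR targets, 3 of 125 (2.40%) for inflammatory genes, 2 of 75 (2.67%) for monocyte genes, 1 of 73 (1.37%) for AP-1 genes, 1 of 165 (0.606%) for TGF-beta and BMP genes and 0 of 43 for interferon response genes. LXR targets had 6 lowered regions and TGF-beta and BMP genes 3. Markers of other cell types held raised regions at 2 of 14 for B cells (14.3%) and 2 of 30 for neutrophils (6.67%). Endothelial markers held 1 of 31 (3.23%, Stab2, also on the Kupffer list) and stellate markers 1 of 12 (8.33%). Hepatocyte, T and NK cell and dendritic cell markers held 0. The B cell share was above that of the Kupffer identity list (10.6%), but these marker shares rest on 1 or 2 raised regions each.

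The libraries held 10.43 to 18.36 M tags and 48775 to 104206 peaks, and each BMDM library had more peaks than any blood or liver library. In all groups 8 of 8 macrophage marker genes had a region with a peak in every library. Of 6 Kupffer marker genes 5 had one in blood monocytes, RLMs and TIM4-negative Nr1h3 KO cells and 6 in the other groups. Their summed signal was 352.3 to 550.5 in blood, 451.4 to 601.0 at 24 h, 1073 to 1358 at 48 h and 1983 to 2278 in PBS Kupffer cells. It was 1051 to 1407 in TIM4-positive and 1154 to 1186 in TIM4-negative Nr1h3 KO cells, against 1990 to 2550 in Nr1h3 controls, and 457.0 to 796.4 in cells titled Smad4 KO, against 1292 to 1640 in cells titled control. The sum for 8 dendritic cell marker genes was 2186 to 2990 in blood, 1342 to 1505 at 24 h, 1661 to 1806 at 48 h and 1012 to 1197 in PBS Kupffer cells, and that for 8 hepatocyte marker genes was 35.0 to 72.6, 56.0 to 96.5, 176.8 to 215.6 and 196.2 to 256.9 at the same stages. These sums were not centred, and the part of other cells in the changes below was not tested. A missing peak has no deposited value, so it says that no peak was called at that depth, and not that the site was closed. Whether a change comes from more cells with an open site or from more cuts per cell cannot be told apart in bulk samples.

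With whole peak lists the share of raised regions with a peak was highest in 48 h RLMs, and with lists cut to equal length it was 50.5% in cells titled Smad4 KO and 50.2% in 48 h RLMs. In blood monocytes 49.7 ± 3.14% of them had a peak (SD, n = 2), a share like that of lowered regions, at 48.3 ± 2.12%, and below that of all 72015 regions, at 70.9 ± 1.95%. In RLMs the share of raised regions was 59.4 ± 6.56% at 24 h (n = 3) and 78.1 ± 3.25% at 48 h (n = 2), and in PBS Kupffer cells it was 61.2 ± 0.393% (n = 2). Lowered regions had 39.6 ± 2.77%, 46.2 ± 9.78% and 26.4 ± 1.47% at the same stages, and all 72015 had 71.3 ± 2.60%, 79.1 ± 3.73% and 64.7 ± 1.82%. Within each liver library the raised share was above the lowered share, and in blood the gap was small. Raised and lowered regions also differ from the 72015 in level in culture, and the part of that difference in these shares was not tested. In the other liver groups the raised share was 50.8 ± 2.75% in TIM4-positive and 67.7 ± 0.842% in TIM4-negative Nr1h3 KO cells, against 59.8 ± 4.04% in Nr1h3 controls, and 54.0 ± 6.45% in cells titled Smad4 KO, against 60.4 ± 3.82% in cells titled control (n = 2 each). All 72015 regions had 56.7%, 70.2%, 62.8%, 58.6% and 64.6% in the same order. Between these groups the raised share thus moved with that of all 72015 regions.

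**Figure D3:**
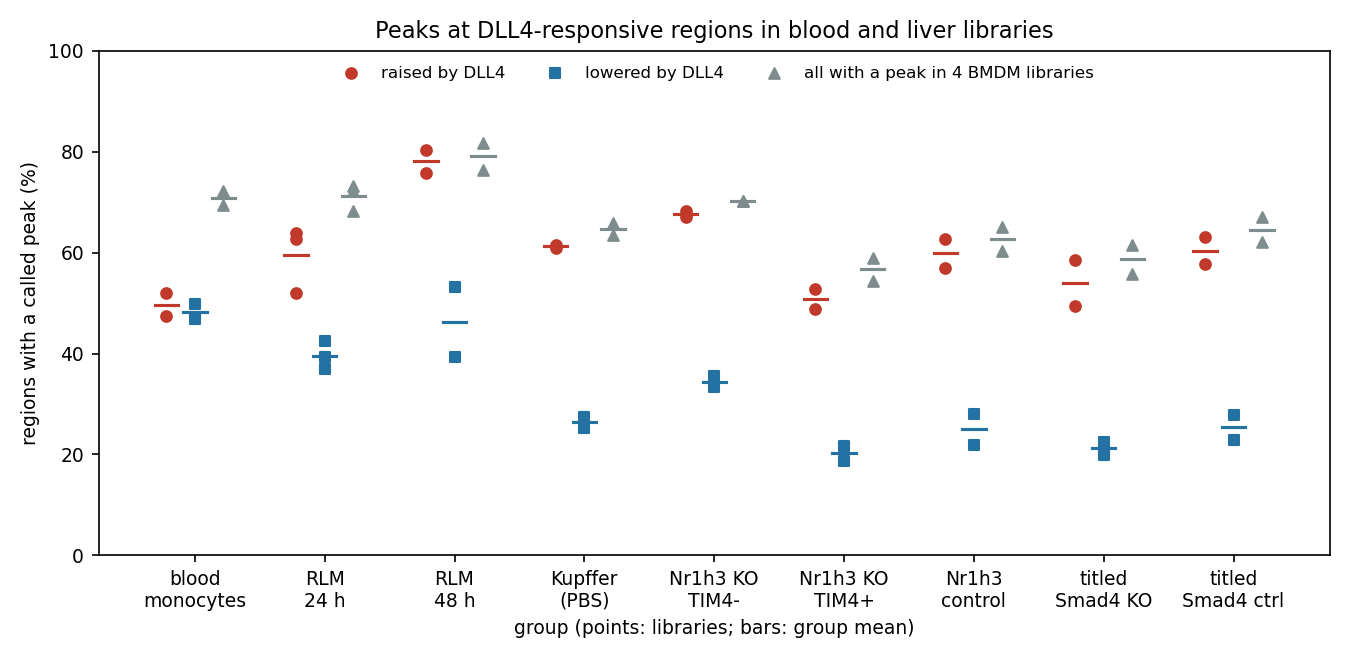
Share of raised, lowered and all 72015 regions with a called peak in each blood and liver library (points) with the group mean (bars). Raised regions lie among the lowered regions in blood, at 49.7% and 48.3% on average, and above them in every liver group, for instance 61.2% and 26.4% in PBS Kupffer cells.

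A share of 45.2%, or 569 raised regions, had no peak in either blood library. Of these 81 (14.2%) had a peak in every 24 h RLM library, 294 (51.7%) in both 48 h libraries and 249 (43.8%) in both Kupffer libraries. Among 17811 of the 72015 regions without a blood peak the shares were 9.69%, 31.5% and 28.0%, and among the 409 lowered ones 2.20%, 13% and 9.54%. The 24 h share asks for a peak in 3 libraries and the other shares in 2, so the 24 h share is not set against them. These libraries held 10.43 to 14.19 M tags, and 48 h replicate 2 had the longest peak list at 84395 peaks.

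When lists were cut to their 48720 strongest peaks, raised regions were at 32.0% in blood, 41.0% at 24 h, 50.2% at 48 h and 48.8% in Kupffer cells. Lowered regions were then at 33.5%, 22.7%, 18.3% and 14.9%, and the 72015 at 57.3%, 57.7%, 58.1% and 54.1%.

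Levels were tested between groups with limma where a region had a peak in every library of both groups. The first comparison set RLMs taken 24 h after the toxin against blood monocytes. These groups also differ in mouse strain and in treatment, and the time that the RLMs had spent in the liver is not given. Of 434 raised regions that could be tested 123 (28.3%) were higher in 24 h RLMs and 33 (7.60%) lower, at an adjusted p of 0.05, beside 16.7% higher and 9.33% lower of all 45317 regions tested (or 17.4% and 9.59% of the 41049 of these with a peak in all 4 BMDM libraries). The median log2 change was 0.30 for raised regions and 0.09 for all, and for the 220 lowered regions tested it was -0.41, with 9 higher and 76 lower. The largest gain was 2.26 kb from Plekha1, which encodes an adaptor that binds phosphoinositides, with 154.5, 193.4 and 111.9 in 24 h RLMs, against 15.5 and 21.8 in blood, and the groups were far apart. Its log2 change was 3.22 ± 0.237 (SE), with a limma adjusted p of 1.3e-10. Rnf121, a membrane ubiquitin ligase, gained 3.15 ± 0.283 (limma adjusted p = 4.2e-09), and chr14:62001428-62002040 without a near gene gained 3.16 ± 0.313 (limma adjusted p = 2.1e-08).

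Hes1 and Itga9 were among the genes with tested regions that were higher at 24 h. The Hes1 region nearest the gene had 222.8, 158.9 and 118.6 in 24 h RLMs, against 53.7 and 64.8 in blood, and its log2 change was 1.70 ± 0.198 (limma adjusted p = 2.7e-07). The second had 181.6, 171.6 and 101.5 in 24 h RLMs, against 58.6 and 53.6 in blood, a change of 1.64 ± 0.213 (limma adjusted p = 1.4e-06). Both regions were higher in every liver library than in either blood library. Both Itga9 regions that could be tested were higher, by 1.51 ± 0.229 and 1.94 ± 0.145 (limma adjusted p = 1.3e-05 and 1.6e-10), and the stronger had 386.6, 336.0 and 273.1 in 24 h RLMs, against 80.6 and 129.7 in blood. Sec13 had 41.2, 46.3 and 36.0 in 24 h RLMs, against 13 and 26.1 in blood, a change of 1.37 ± 0.31 (limma adjusted p = 0.0014), which did not pass without blood replicate 1.

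The 3 largest losses were near Dnah6, Abcc4 and Zmiz1. The region 18.5 kb from the dynein gene Dnah6 had 26.2, 20 and 26.6 in 24 h RLMs, against 81.4 and 152.9 in blood. Its log2 change was -1.90 ± 0.276 (limma adjusted p = 6.6e-06). Abcc4, an exporter of organic anions, lost 1.86 on the log2 scale and the transcriptional coregulator gene Zmiz1 lost 1.54. Before centring, the 24 h libraries lay 0.27 lower than blood (log2, difference of library medians). Without centring 66 raised regions were higher and 47 lower, beside 4.58% and 12.8% of all tested. Without blood replicate 2 there were 79 higher and 11 lower, and without blood replicate 1 there were 96 and 13.

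From 24 h to 48 h more raised regions were higher than lower. Of 552 tested 68 (12.3%) were higher at 48 h and 4 (0.725%) lower, beside 1.92% and 3.53% of all 48442 (or 1.82% and 3.7% of the 43367 of these with a peak in all 4 BMDM libraries), and the medians were 0.23 and -0.08. Of 213 lowered regions 0 were higher by limma (6 at an unadjusted p under 0.05) and 15 were lower. Pcolce2, an enhancer of procollagen processing that marks Kupffer cells, led with 223.1 and 236.2 at 48 h, against 43.1, 33.6 and 14.2 at 24 h. Its log2 change was 2.85 ± 0.283 (limma adjusted p = 2.9e-06). Arl15, a small GTPase, had 83.7 and 86.5 at 48 h, against 13.1, 10.9 and 14.2 at 24 h, a change of 2.49 ± 0.309 (limma adjusted p = 7.0e-05). Kcnk13, a potassium channel gene, gained 2.48 ± 0.33 (limma adjusted p = 0.00013) at a region 21.5 kb from it. Of the Kupffer identity regions 16 were tested, 6 were higher (Pcolce2, Clec1b, Spic and 3 at Itga9) and 0 were lower by limma, also at an unadjusted p under 0.05.

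Clec1b had 148.2 and 170.9 at 48 h, against 85.2, 68.1 and 37.0 at 24 h, and no peak in blood. The Runx3 promoter region went the other way, with 25.3 and 30.1 at 48 h, against 59.0, 58.1 and 57.9 at 24 h, a log2 change of -1.22 ± 0.261 (limma adjusted p = 0.0077). It had 77.3 and 95.9 in blood and no peak in Kupffer cells of any control group apart from 9.29 in 1 library titled Smad4 control. The other losses were Tusc3, a subunit of the oligosaccharyltransferase, at -1.59, and chr5:112153616-112154091, at -1.17. These counts rest on few libraries: there were 13 higher and 2 lower without 48 h replicate 1, 6 and 1 without 48 h replicate 2, 107 and 18 without 24 h replicate 3, 55 and 2 without 24 h replicate 1, and 57 and 2 without 24 h replicate 2. Over all regions the higher share was 0.233%, 0.0834%, 3.29%, 1.36% and 1.26% in the same order, and Pcolce2 and Arl15 passed in each while Clec1b, Runx3 and the 3 Itga9 regions did not pass without either 48 h library.

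In Kupffer cells against 48 h RLMs the higher share of raised regions was above the background, and the lower share was near it. Of 639 tested 121 (18.9%) were higher in Kupffer cells and 80 (12.5%) lower, beside 13.7% and 12.6% of all 46198 (or 13% and 13.6% of the 40695 of these with a peak in all 4 BMDM libraries). Of 136 lowered regions tested 22 (16.2%) were higher and 18 (13.2%) lower. Among raised regions Plxdc2, Fam13a and Ccdc149 rose by 3.13 ± 0.288, 2.96 ± 0.256 and 2.72 ± 0.333 (limma adjusted p = 4.1e-13, 4.5e-14 and 3.5e-09). Fam13a had 116.6 and 129.4 in Kupffer cells, against 18.3 and 18.3 at 48 h. The largest falls were near Chst11, a sulfotransferase of chondroitin, Gpd2, the mitochondrial glycerol-3-phosphate dehydrogenase, and Asb2, an adaptor of a ubiquitin ligase, by 2.64, 2.35 and 2.28 on the log2 scale. Asb2 had 23.7 and 20.1 in Kupffer cells, against 133.3 and 134.2 at 48 h, and its log2 change was -2.28 ± 0.246 (limma adjusted p = 8.0e-11). Of 22 Kupffer identity regions tested 1 was higher, at Arnt2, a transcription factor gene of the basic helix-loop-helix PAS family, and 4 were lower, at Spic, Cd38 and 2 regions of Itga9. Kupffer libraries lay 0.28 lower before centring, and without centring the calls were 61 higher and 140 lower, beside 6.32% and 25.3% of all. Without 48 h replicate 1 there were 49 lower and without 48 h replicate 2 there were 40.

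In PBS Kupffer cells, set against blood monocytes, 175 of 376 raised regions tested (46.5%) were higher and 51 (13.6%) lower, beside 25.7% and 25.3% of all 37850 (or 25.8% and 26.2% of the 35440 of these with a peak in all 4 BMDM libraries). The medians were 0.66 and -0.0036, and of 123 lowered regions 23 were higher and 49 lower. This comparison shares its libraries with the earlier ones, so its values stand beside theirs and do not add to them. Rassf8 had 233.2 and 260.8 in Kupffer cells, against 17.9 and 18.3 in blood, a log2 change of 4.09 ± 0.228 (limma adjusted p = 6.1e-25). It already had 159.1, 149.8 and 84.4 at 24 h. The region chr15:24589061-24589349 gained 4.05 ± 0.256 and the region 26.7 kb from Efna5, an ephrin ligand, gained 3.74 ± 0.273 (limma adjusted p = 3.5e-22 and 3.1e-19). Hes1 was higher by 1.49 ± 0.205 at the nearest region (limma adjusted p = 5.5e-09), with 117.5 and 139.0 in Kupffer cells, against 53.7 and 64.8 in blood.

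The 3 largest falls in Kupffer cells against blood were at regions nearest to Sik1, Cyp8b1 and Chst11. Sik1, a salt-inducible kinase gene, had 8.53 and 10.5 in Kupffer cells at a region 8.23 kb away, against 78.1 and 97.3 in blood. Its log2 change was -2.68 ± 0.315 (limma adjusted p = 5.4e-11). A region 12.2 kb from Cyp8b1, a bile acid synthesis gene of hepatocytes, and the Chst11 region changed by -2.61 and -2.51. Of 8 Kupffer identity regions tested 6 were higher and Rxra was lower, with 40.8 and 36.4 in Kupffer cells, against 72.4 and 85.3 in blood. Kupffer libraries lay 0.39 lower than blood before centring, and without centring 106 were higher and 60 lower, beside 10.0% and 31.2% of all. Without blood replicate 2 there were 167 higher and 33 lower.

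Regions without a peak in some library could not be tested, and for these the presence of peaks was counted. Of the raised regions 249 (19.8%) had a peak in both Kupffer libraries and neither blood library, and 123 (9.76%) had the reverse, beside 6.92% and 11.4% of the 72015. At 24 h 81 raised regions (6.43%) had peaks in every RLM library and in no blood library and 18 (1.43%) the reverse, beside 2.4% and 1.94%. At 48 h 86 (6.83%) had peaks in both 48 h libraries and in no 24 h library and 1 the reverse, beside 2.91% and 0.293%. In Kupffer cells against 48 h RLMs 16 (1.27%) had peaks only in Kupffer cells and 160 (12.7%) only at 48 h, beside 1.05% and 10.3%.

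**Figure D4:**
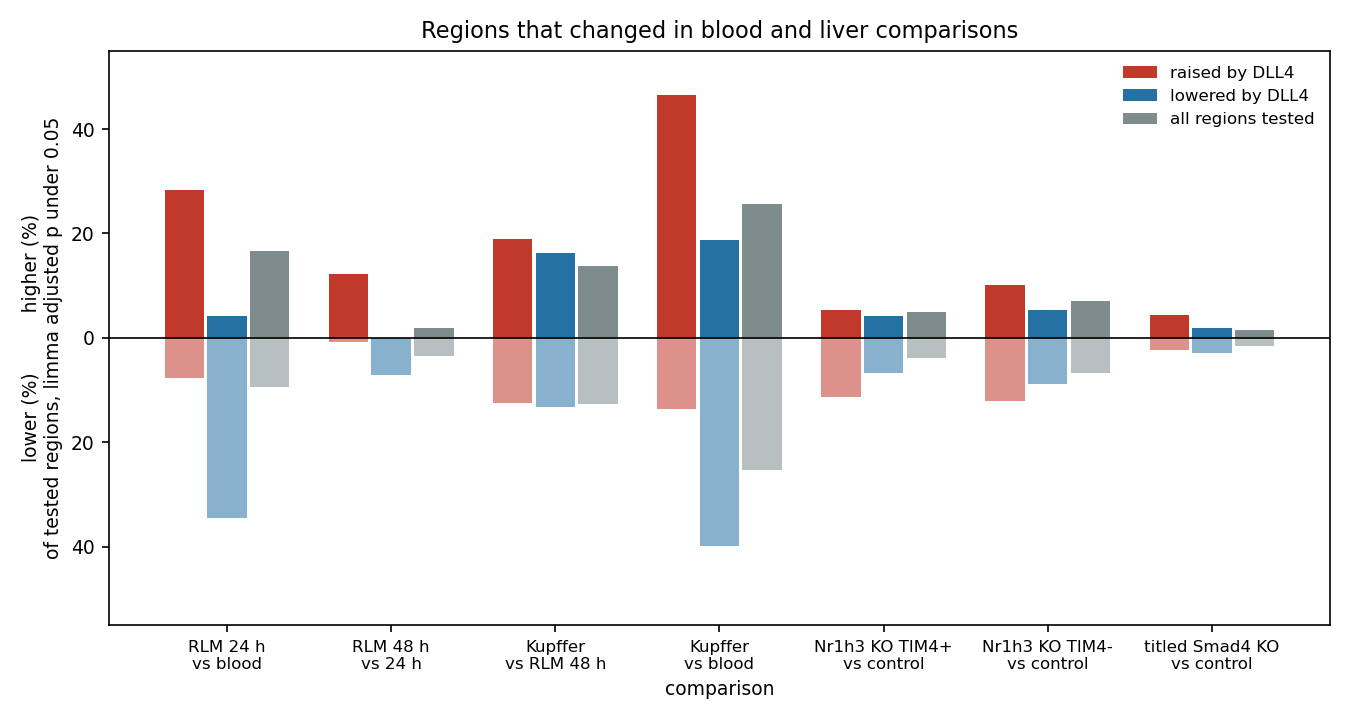
Share of tested regions that were higher (solid, upward) or lower (pale, downward) by limma at an adjusted p under 0.05, for raised, lowered and all regions in 7 comparisons. For Kupffer cells against blood the raised regions show 46.5% higher and 13.6% lower, and all regions show 25.7% and 25.3%.

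In Nr1h3 KO cells a larger share of raised regions than of all regions was lower than in controls, and the share of lowered regions lay between. In TIM4-negative KO cells the higher share of raised regions was also above that of all regions after centring, and below it without centring (22.6% against 26.3%). In TIM4-positive Nr1h3 KO cells 61 of 534 tested (11.4%) were lower and 28 (5.24%) higher than in TIM4-positive controls, beside 3.91% and 4.86% of all 40231 (or 3.13% and 5.07% of the 35165 of these with a peak in all 4 BMDM libraries). In TIM4-negative Nr1h3 KO cells 77 of 636 (12.1%) were lower and 64 (10.1%) higher, beside 6.68% and 7.03% of all 46888 (or 4.98% and 7.71% of the 39834 of these with a peak in all 4 BMDM libraries). Of 120 lowered regions tested in TIM4-positive KO cells 8 (6.67%) were lower and 5 (4.17%) higher. Of 148 lowered regions tested in TIM4-negative KO cells 13 (8.78%) were lower and 8 (5.41%) higher. The 2 comparisons share the control libraries. Peaks in both TIM4-positive KO libraries and no control were at 9 raised regions (0.714%) and the reverse at 62 (4.92%), beside 0.573% and 3.29% of the 72015, and for TIM4-negative KO cells the counts were 70 (5.56%) and 20 (1.59%), beside 4.46% and 0.811%. The scaffold gene Magi1 had 7.02 and 23.9 in TIM4-positive KO cells and 18.9 and 6.54 in TIM4-negative KO cells, against 82.1 and 62.7 in controls, with changes of -2.06 ± 0.253 and -2.97 ± 0.269 (limma adjusted p = 2.7e-13 and 1.4e-22). Arl15 had 39.6 and 76.4 in TIM4-positive KO cells and 37.7 and 34.9 in TIM4-negative KO cells, against 251.0 and 224.5 in controls. Its change in TIM4-negative cells was -3.08 ± 0.17 (limma adjusted p = 6.4e-52). The splicing factor gene Rbm17 had 11.5 and 28.0 in TIM4-positive KO cells, against 83.3 and 77.9 in controls (-1.79 ± 0.232, limma adjusted p = 5.5e-12).

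Among the gains, Pon2, a paraoxonase of intracellular membranes, had 28.1 and 48.5 in TIM4-positive KO cells and 43.6 and 52.3 in TIM4-negative KO cells, against 12.1 and 8.58 in controls. The changes were 2.07 ± 0.294 and 1.72 ± 0.29 (limma adjusted p = 7.3e-10 and 4.2e-07). Nxpe4 gained 1.45 and 1.69 and the collagenase gene Mmp13 gained 1.42 and 1.69, in TIM4-positive and TIM4-negative KO cells. The Mmp13 call in TIM4-positive KO cells was lost without centring and without control replicate 2. Of 22 Kupffer identity regions tested 0 passed in TIM4-positive KO cells by limma, where 4 were higher and 1 lower at an unadjusted p under 0.05, and in TIM4-negative KO cells 3 were higher (2 at Itga9 and 1 at Dnase1l3) and 3 lower (Spic, Cd38 and Ptgs1). Hes1 did not pass in TIM4-positive KO cells. In TIM4-negative KO cells its nearest region had 306.4 and 293.1, against 194.9 and 141.3 in controls, a change of 0.45 ± 0.144 after centring (limma adjusted p = 0.021), a call that was lost with quantile normalisation and when either control library or TIM4-negative KO replicate 1 was left out.

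TIM4-positive KO libraries lay 0.31 lower and TIM4-negative KO libraries 0.40 higher than controls before centring. Without centring the raised regions had 3 higher and 49 lower in TIM4-positive KO cells, beside 0.149% and 3.49% of all. In TIM4-negative KO cells they had 144 higher (22.6%) and 25 lower (3.93%) without centring, beside 26.3% and 2.51% of all. The balance of the calls thus turned with the scaling, and the higher share fell below that of all regions. With quantile normalisation there were 41 higher (6.45%) and 69 lower (10.8%), beside 3.63% and 5.5% of all. Signal at markers of other cells also differed between these groups, in sums that were not centred. The macrophage marker sum moved too, with 2425 to 2935 in TIM4-positive and 4318 to 4391 in TIM4-negative KO cells, against 2695 to 3484 in controls. The summed endothelial marker signal was 534.2 to 538.0 in TIM4-positive and 950.2 to 1069 in TIM4-negative KO cells, against 870.9 to 1101 in controls. The neutrophil sum was 253.0 to 311.4 and 535.1 to 562.1 in the same KO groups, against 384.3 to 500.7 in controls, and the dendritic cell sum was 989.9 to 1111 and 1923 to 1967, against 1135 to 1521. Their part in these counts was not tested. In TIM4-positive KO cells there were 12 higher and 31 lower without control replicate 1, 21 and 27 without control replicate 2, and 17 and 41 without KO replicate 1. In TIM4-negative KO cells there were 43 higher and 44 lower without control replicate 2, and 41 and 52 without KO replicate 1. With the replicate number as a block TIM4-positive KO cells had 42 higher and 63 lower.

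Kupffer cells titled Smad4 KO differed from those titled control at few raised regions. Of 549 tested 24 (4.37%) were higher in the libraries titled KO and 13 (2.37%) lower, beside 1.57% and 1.5% of all 40067 (or 1.62% and 1.09% of the 35473 of these with a peak in all 4 BMDM libraries). Peaks in both libraries titled KO and neither titled control were at 9 raised regions (0.714%), and the reverse at 60 (4.76%), beside 0.767% and 3.28% of the 72015. The second Runx3 region, 14.9 kb from the gene at chr4:135192845-135193227, had 36.8 and 51.5 in libraries titled KO, against 15.1 and 6.01 in libraries titled control. Its change was 2.40 ± 0.296 (limma adjusted p = 4.6e-09). It also had 86.0 and 68.6 in TIM4-negative Nr1h3 KO cells and 33.8 and 25.9 in TIM4-positive Nr1h3 KO cells, against 15 and 19.8 in Nr1h3 controls, and 90.3 and 143.1 in blood, with no peak in PBS Kupffer cells. Cbfa2t3, a corepressor gene of blood cells, gained 1.54 ± 0.262 and Dnah12, a dynein gene, changed by -1.35 ± 0.269 (limma adjusted p = 2.3e-05 and 0.00041). The Cbfa2t3 call was lost without centring and the Dnah12 call without titled control replicate 2.

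Libraries titled Smad4 KO lay 0.34 lower before centring, and without centring there were 2 higher and 11 lower, beside 0.0699% and 1.25% of all. Quantile normalisation gave 12 higher and 10 lower, beside 0.631% and 1.03% of all. The endothelial marker sum was 551.9 to 850.2 in libraries titled KO, against 859.8 to 1018 in libraries titled control, and its part in these counts was not tested. The macrophage marker sum, also not centred, was 1492 to 1976 in libraries titled KO, against 1873 to 2576 in libraries titled control. The counts were 10 higher and 9 lower without titled KO replicate 1, 15 and 14 without titled KO replicate 2, 13 and 6 without titled control replicate 1, and 7 and 2 without titled control replicate 2. Of 22 Kupffer identity regions tested 0 passed by limma, and 7 were higher and 0 lower at an unadjusted p under 0.05. No share of all regions at that unadjusted threshold stands beside this count, so it is a description only.

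Some raised regions changed in several of these comparisons. The region chr3:31389993-31390322, with no gene within 50 kb, had 79.6 and 113.1 in PBS Kupffer cells and no peak in blood or at 48 h. It had 6.38 and 21.8 in TIM4-positive Nr1h3 KO cells and 8.84 and 7.08 in TIM4-negative Nr1h3 KO cells, against 54.4 and 62.7 in controls. It had 8.37 and 8.06 in libraries titled Smad4 KO, against 45.4 and 47.6 in libraries titled control, with a change of -2.03 ± 0.279 (limma adjusted p = 1.2e-07). The region chr13:112001089-112001485 went the other way in libraries titled Smad4 KO and in TIM4-negative Nr1h3 KO cells. It had 36.8 and 33.5 in libraries titled Smad4 KO, against 7.87 and 15.3 in libraries titled control. It had 109.6 and 107.9 in TIM4-negative Nr1h3 KO cells, against 24.9 and 19.8 in controls. In TIM4-positive Nr1h3 KO cells it had 26.8 and 19.1 and did not pass (log2 change 0.333 ± 0.284, limma adjusted p = 0.52). It had 105.0 and 141.0 in blood, with no peak in PBS Kupffer cells.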

How the data were processed

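ATAC-seq peak files of 23 mouse libraries in 11 groups were used. Bowtie2, HOMER and mm10 are named in the submitters' processing notes, and tool versions are not given in the sources used here. Each deposited file lists 1 library's peaks with a signal, the normalised tag count of HOMER findPeaks for a library of 10 M tags, per the file headers. The deposited findPeaks score, computed per the file headers with at most 1 tag per base, entered an alternative rule only. Peaks were called at 200 bases with no input library, with limits of 0.001 on the false discovery rate, 4 on the fold over the local 10 kb and 1e-04 on the local Poisson p, per the file headers.

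Peaks of 19 autosomes and X that shared at least 1 base were merged, and the strongest peak of a library stood for it in a region. The members and gene lists were chosen with earlier results of these data known. Regions are named after the closest protein-coding gene of RefSeq GRCm38.p6, up to 50 kb away. Levels were compared with limma 3.58.1 (R 4.3.3) on log2(normalised tags + 1), each library centred on its median, with a mean-variance trend, two-sided, over all regions with a peak in every library of both groups. Fold changes on this scale understate those of low regions. Benjamini-Hochberg adjusted p under 0.05 was called. Counts at an unadjusted p under 0.05 are given without a share of all regions beside them, so they show no trend of a list. The files are peak lists, so regions without a peak have no value and no count test was made. Regions named in the text are the 12 with the largest ratio, those of the Notch and Kupffer lists, the 3 genes with most members and the 3 largest called changes in each direction per comparison, while the regions of the shown promoters and those named in several comparisons were picked after their values were seen. A planned motif search over the regions needed a genome and was not run, and promoter windows (RefSeq GRCm38.p6, 250 bases before to 50 after a start) were searched instead, a choice made after seeing the data. The limma step was tested on simulated data. Depth was 10.43 to 18.36 M tags per library.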

Additional observations from a re-analysis of the deposited data

How the results depend on the processing

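The count of raised regions was 214 at a ratio of 2, 1897 when each same-numbered pair was compared, a replicate block that the numbers do not back (correlation of same-numbered deviations -0.038), and 504 with the findPeaks score in place of the tag count, an alternative chosen after seeing the data. The score also turned the balance, with 504 raised and 720 lowered, where the tag count gave 1260 and 868. It kept 438 of the 1260 (34.8%), among them the 12 with the largest ratio, and 98.9% of the 1260 kept a score ratio above 1. Centring gave 1142 raised and 1059 lowered, and quantile normalisation 1164 and 1015. Leaving out a BMDM library gave 3032 to 5317: 3137 without DLL4 replicate 1, 3032 without DLL4 replicate 2, 5317 without NoTx replicate 1 and 3304 without NoTx replicate 2, since fewer values then have to stay apart.

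Shares of raised regions with a peak, taken over those with a ratio of 2, were 40.4% in blood, 66.4% in PBS Kupffer cells, 73.4% in TIM4-negative Nr1h3 KO, 58.4% in TIM4-positive Nr1h3 KO, 67.1% in Nr1h3 control, 62.9% in titled Smad4 KO and 68.9% in titled Smad4 control. Merging at 100 bases gave 60.8% in PBS Kupffer cells and 66.5% in TIM4-negative Nr1h3 KO. Lists cut to equal length gave 32.0% in blood, 41.0% at 24 h, 50.2% at 48 h, 48.8% in PBS Kupffer cells, 49.9% in TIM4-negative Nr1h3 KO, 48.5% in TIM4-positive Nr1h3 KO, 48.1% in Nr1h3 control, 50.5% in titled Smad4 KO and 47.6% in titled Smad4 control.

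Members with a ratio of 2 gave counts of 16 higher and 4 lower (24 h against blood), 14 and 1 (48 h against 24 h), 26 and 20 (Kupffer against 48 h), 32 and 8 (Kupffer against blood), 5 and 8 (TIM4-positive Nr1h3 KO), 15 and 14 (TIM4-negative Nr1h3 KO) and 6 and 1 (titled Smad4), since fewer were tested. Without centring the counts that moved were 66 higher (24 h), 2 lower (48 h), 61 higher and 140 lower (Kupffer against 48 h), 106 higher (Kupffer against blood), 3 higher (TIM4-positive Nr1h3 KO), 144 higher and 25 lower (TIM4-negative Nr1h3 KO) and 2 higher (titled Smad4). Quantile normalisation gave 2 lower (48 h), 41 higher (TIM4-negative Nr1h3 KO) and 12 higher (titled Smad4). One fit over the groups of the experiment gave 7 lower at 48 h. For titled Smad4 a mean of at least 20 gave 13 higher, and the sum of peaks gave 15. The cause was not tested except where stated.

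Leaving out 1 library gave 79 to 143 higher and 11 to 44 lower (24 h against blood), 6 to 107 and 1 to 18 (48 h against 24 h), 87 to 122 and 40 to 73 (Kupffer against 48 h), 156 to 202 and 33 to 48 (Kupffer against blood), 12 to 38 and 27 to 62 (TIM4-positive Nr1h3 KO), 41 to 46 and 44 to 57 (TIM4-negative Nr1h3 KO) and 7 to 15 and 2 to 14 (titled Smad4). Where that leaves a group with 1 library, it is assumed to vary like the other group. The Nr1h3 numbers did not pair the libraries (correlations of 0.0088 and -0.0043), and the replicate block gave 42 higher and 63 lower in TIM4-positive and 63 and 77 in TIM4-negative KO cells. No named region changed direction after being called. Depth limits the lowest regions, where a peak held 8 to 11 tags at the threshold.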

Other observations

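Regions with peaks in both DLL4 libraries and neither NoTx library lie outside the rule, and there were 2500 of them, against 2377 with peaks in both NoTx libraries and neither DLL4 library. They were weak, with medians of 10.2 and 10.3 normalised tags in the DLL4 libraries. Peaks at the DLL4-only regions were called in 20.6 ± 2.06% of them in blood (SD, n = 2), 22.4 ± 1.80% in 24 h RLMs (n = 3), 35.5 ± 4.44% in 48 h RLMs (n = 2) and 23.9 ± 1.73% in PBS Kupffer cells (n = 2). For the NoTx-only regions the shares were 26.1 ± 1.67%, 18.9 ± 0.923%, 22.5 ± 4.05% and 14.1 ± 0.416%. Kupffer identity genes held 26 DLL4-only and 8 NoTx-only regions, among them Marco, Cd207, Slc40a1 and Zeb2 with DLL4-only regions. Notch target genes held 5 of each kind. Apol7c had 5 DLL4-only and 0 NoTx-only regions, and Itga9, Klf7 and Filip1l had 4 and 0 each.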
